A study of Homo sapiens with 8 samples.

Results

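The genes of the SMAD and ID transcription regulators were examined in adipose-derived stem cells (ADSCs) treated with SAHA (vorinostat), an inhibitor of histone deacetylases. These 10 genes, SMAD1 to SMAD7 and ID1 to ID3, were taken by gene symbol from the 18508 genes with an expression value, and all 10 were found. The cells were ASC52telo, a single human adipose-derived mesenchymal stem cell line made immortal with hTERT, so all replicates come from 1 line. Every culture first went 24 h without serum. The SAHA group then had 1000 nM SAHA for 72 h, the EtOH group had the ethanol in which SAHA was dissolved, and the untreated group (labelled Control-Ctrl) had neither. Before harvest all were given fresh medium for a further 24 h. RNA was read on Clariom S human arrays, 3 of SAHA, 2 of EtOH and 3 of untreated ADSCs, and 1 further EtOH array had been left out by the authors for low intensity.

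The expression values are log2 units on a scale with an unknown zero point, from -0.83 to 9.96 over all genes. Changes are therefore measured between arrays for the same gene. The array medians lay between 0.26 and 0.28 for SAHA and between 0.30 and 0.33 for the controls. The arrays of replicates 1, 2 and 3 had the same mean value in all 18508 genes (within 1e-10), so differences between replicate numbers had been removed. Replicate 2 has 1 untreated and 1 SAHA array, whose values thus lie at equal distances on either side of the gene's mean. As a rough check of the cell type, which does set genes side by side, the markers were read against the array medians. Of 7 stromal markers, NT5E, THY1, ENG, CD44, ALCAM, PDGFRB and VIM, all had group means of 4.04 to 8.32. The 6 blood and endothelial markers and the 4 fat cell markers had group means of -0.42 to 0.66, around the array medians. Of these 17 markers 0 were called between SAHA and the controls, where 0.438% of all genes were higher and 0.297% lower. So few genes were called that this count says little about the markers. By limma 2 stromal markers had an unadjusted p under 0.05, NT5E with a log2 fold change of 0.31 and THY1 with 0.35. Of the other 2 marker lists 0 genes did.

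SMAD proteins carry signals of the TGF-beta family from cell surface receptors to the nucleus. SMAD2 and SMAD3 are activated by TGF-beta and activin receptors, SMAD1 and SMAD5 by BMP receptors, and SMAD4 is the common partner of both branches. SMAD6 and SMAD7 are inhibitory SMADs that dampen the pathway, SMAD6 mainly the BMP branch, and both genes are themselves induced by the signal they limit. The ID genes encode helix-loop-helix proteins without a DNA-binding region, which hold bHLH transcription factors off DNA, and ID1, ID2 and ID3 are classical BMP target genes. In mesenchymal stem cells these signals take part in the choice between bone, cartilage, fat and smooth muscle fates.

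The sequence before the transcription start is shown for SMAD6 and ID3, the members called higher with SAHA, and for ID1 and ID2, the close relatives of ID3. Each run is the 250 bases ahead of the annotated start, 5′ to 3′ on the strand of the gene, from RefSeq promoters on GRCh38.p14. They lie at chr15:66701986-66702235 on the + strand for SMAD6, chr1:23559502-23559751 on the - strand for ID3, chr20:31605039-31605288 on the + strand for ID1 and chr2:8681806-8682055 on the + strand for ID2. Capitals mark letters described for SMAD binding, searched on both strands, so that a match may stand as its reverse complement. They are CAGAC, the palindrome GTCTAGAC, GGCGCC and GGAGCC. None of these 4 motifs contains another.
SMAD6: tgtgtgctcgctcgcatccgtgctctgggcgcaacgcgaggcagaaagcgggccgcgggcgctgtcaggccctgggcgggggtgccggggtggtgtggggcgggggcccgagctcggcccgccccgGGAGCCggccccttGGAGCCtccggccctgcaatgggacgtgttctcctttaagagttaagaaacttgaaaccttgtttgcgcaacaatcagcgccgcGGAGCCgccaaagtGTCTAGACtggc
ID3: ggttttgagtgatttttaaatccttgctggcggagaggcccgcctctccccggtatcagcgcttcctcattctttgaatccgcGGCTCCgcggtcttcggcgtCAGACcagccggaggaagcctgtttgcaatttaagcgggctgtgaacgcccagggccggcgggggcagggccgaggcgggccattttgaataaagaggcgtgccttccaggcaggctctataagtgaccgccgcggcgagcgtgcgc
ID1: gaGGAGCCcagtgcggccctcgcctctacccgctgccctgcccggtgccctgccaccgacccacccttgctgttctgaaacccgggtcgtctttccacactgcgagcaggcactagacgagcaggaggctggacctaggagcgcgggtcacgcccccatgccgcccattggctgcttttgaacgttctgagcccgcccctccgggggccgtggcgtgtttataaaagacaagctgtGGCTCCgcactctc
ID2: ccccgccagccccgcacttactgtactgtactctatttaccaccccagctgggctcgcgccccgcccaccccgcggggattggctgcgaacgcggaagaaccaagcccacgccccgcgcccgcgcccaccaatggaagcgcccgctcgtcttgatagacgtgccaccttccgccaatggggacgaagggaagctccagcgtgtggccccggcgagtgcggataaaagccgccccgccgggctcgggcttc

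The SMAD6 window holds the palindrome GTCTAGAC once, with its first base 12 bases before the start, and GGAGCC 3 times, at 124, 110 and 26 bases before it. Of 35116 RefSeq promoter windows of this length, 0.182% hold GTCTAGAC. Of the 21 windows of the 10 members, which include up to 5 start sites a gene, the SMAD6 window alone holds it. ID3 holds CAGAC once and GGAGCC once, on opposite strands, letters found in 38.0% and 30.6% of all windows. ID1 holds GGAGCC at 2 places and ID2 holds none of the 4 motifs. The motif CCAAT, found in 32% of windows on either strand, is present 3 times in ID2 and once in ID1, and TATAAA, found in 10.7%, is present in ID1. CANNTG, the E-box letters of bHLH factors, is in 61.8% of windows and, among these 4 genes, in ID2. GGCGCC, in 16.4% of windows, is in none of the 4 but in windows of SMAD1, SMAD2, SMAD3 and SMAD4. A match of letters is a description, and binding was not measured here.

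SMAD6 and ID3 rose in SAHA-treated ADSCs, SMAD2 lay below every control array but missed the p threshold, and the other 7 members were not called. A gene was called when its adjusted p, from limma over all genes, was below 0.05 and its change was at least 1.5-fold. The EtOH and untreated arrays formed 1 combined control group, following the methods. By this rule 2 of the 10 members were higher and 0 were lower, where 0.438% of all genes were higher and 0.297% were lower. The members' median log2 fold change was 0.24, against -0.03 over all genes. An unadjusted p under 0.05 was found in 5 of the 10, and in 2850 of the 18508 genes (15.4%). Because the replicate means had been removed from the values, a fit without the replicate number counts degrees of freedom that this step had used, and its p-values are likely too small. With the replicate number as a block, 1 of the 10 members was higher, SMAD6, and 0 were lower, where 0.195% and 0.0756% of all genes were. Among all 18508 genes SMAD6 had the 18th largest rise and ID3 the 37th, while SMAD2 had the 171st largest fall. The members were picked with earlier results of these arrays known, and SMAD6 is among the genes that the study listed on them, so the count is not independent evidence.

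SMAD6, the inhibitory SMAD that acts mainly on BMP signals, had log2 values of 3.15, 3.29 and 3.51 on SAHA replicates 1, 2 and 3. The untreated arrays had 2.27, 1.84 and 2.15, and EtOH replicates 1 and 3 had 2.28 and 2.04. All SAHA arrays lay above all 5 controls, with a gap larger than the spread within any group. Every SAHA array exceeded every control array in 4.21% of all genes, and in 2 of the 10 members, SMAD6 and ID3. The mean was 3.32 ± 0.18 (SD, n = 3) with SAHA and 2.11 ± 0.18 (SD, n = 5) over all controls, which makes SMAD6 2.30-fold higher, or 1.2 in log2 units (SE 0.13, adjusted p = 0.0023). The arrays are of whole cultures, so more RNA per cell and more of the cells that express a gene cannot be told apart. The log2 fold change was 1.16 against EtOH alone (SE 0.16, adjusted p = 0.046) and 1.23 against untreated alone (SE 0.15, adjusted p = 0.0086). The call against the combined controls passed in 18 of 20 alternative settings, with adjusted p from 0.0011 to 0.037 in those 18. It missed with the methods' t-test (adjusted p = 0.058) and with the fold threshold inside the test (0.49). The call against EtOH was less firm. Its adjusted p was 0.12 with the replicate number as a block and 0.070 with an intensity trend, and leaving out any array but untreated replicate 2 gave 0.053 to 0.33. Without EtOH replicate 1 or 3, at 0.31 and 0.33, the lone EtOH array is assumed to vary like the other groups.

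SMAD7, the general inhibitory SMAD, did not pass. Its SAHA arrays were close together at 2.67, 2.63 and 2.84. The controls spread more widely, with 3.03, 2.38 and 2.36 on the untreated arrays and 1.82 and 2.33 on EtOH replicates 1 and 3. Untreated replicate 1 thus lay above all SAHA arrays, and the other 4 controls lay below them. The log2 fold change was 0.33, with a 95% interval of -0.13 to 0.79 (adjusted p = 0.49). It was 0.64 against EtOH (0.14 to 1.14, adjusted p = 0.28) and 0.12 against untreated (-0.32 to 0.57, adjusted p = 0.80). Whether SMAD6 and SMAD7 differ in their response was not tested.

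**Figure D1:**
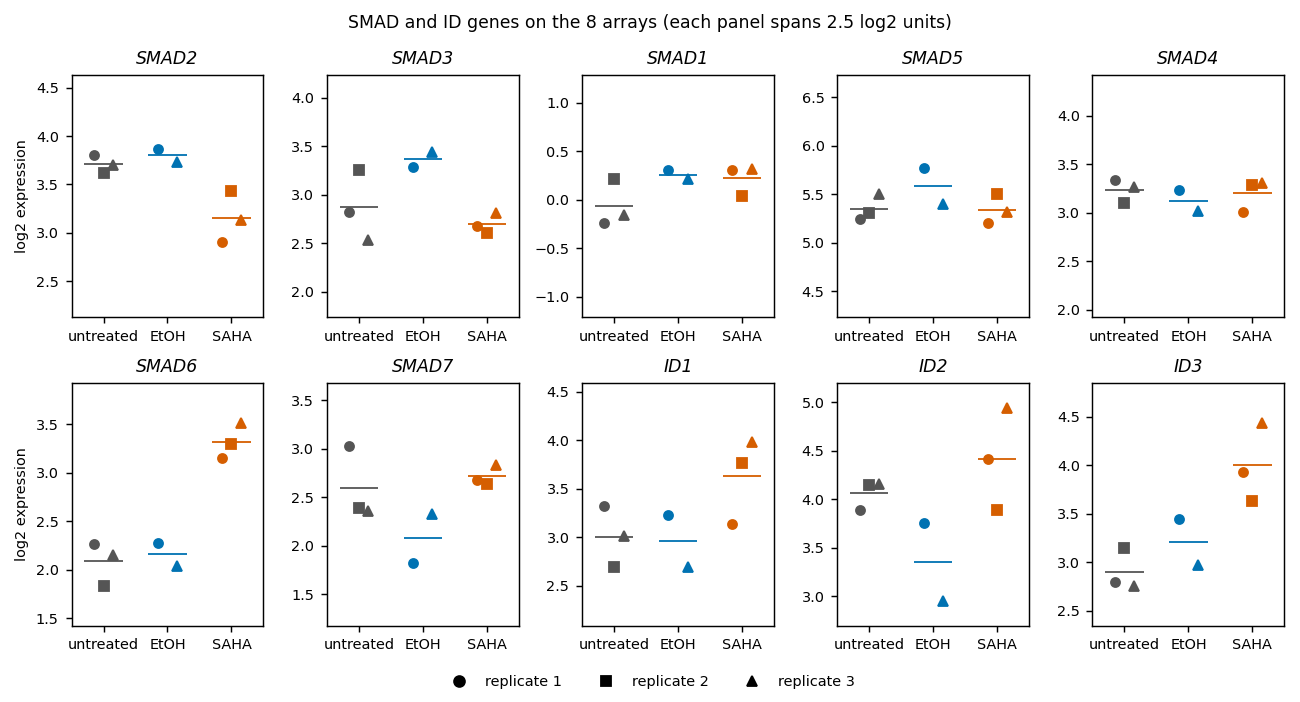
Deposited log2 expression of the 10 members on each of the 8 arrays, with the group on the x axis, the replicate number as the marker shape and the group mean as a bar. Each panel spans 2.5 log2 units. The SAHA points of SMAD6 (3.15 to 3.51) and ID3 (3.63 to 4.43) lie above all 5 control points, and those of SMAD2 (2.90 to 3.43) lie below them.

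All 3 ID genes had positive log2 fold changes, and 1 of them, ID3, was called. ID3 had log2 values of 3.93, 3.63 and 4.43 on the SAHA arrays, against 2.79, 3.14 and 2.75 on the untreated arrays and 3.44 and 2.97 on EtOH replicates 1 and 3. The SAHA arrays were again all higher than the controls, although SAHA replicate 2 and EtOH replicate 1 were only 0.19 apart. The mean was 4.0 ± 0.41 (SD, n = 3) with SAHA and 3.02 ± 0.28 (SD, n = 5) over all controls, so that ID3 was 1.97-fold higher, or 0.98 in log2 units (SE 0.20, adjusted p = 0.047). The value was 0.79 against EtOH (SE 0.24, adjusted p = 0.24) and 1.10 against untreated (SE 0.21, adjusted p = 0.054), and neither was called. The ID3 call lay close to its threshold and was lost in 14 of 20 alternative settings. With the replicate block its adjusted p was 0.12. Leaving out single arrays gave 0.084, 0.10 and 0.080 without untreated replicates 1, 2 and 3, 0.082 without EtOH replicate 3, and 0.16 without SAHA replicate 1 or 3. The call held without EtOH replicate 1 (0.034) or SAHA replicate 2 (0.040). The log2 fold change itself ran from 0.76 to 1.16 over the 20 settings.

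ID1 had log2 values of 3.14, 3.76 and 3.98 on the SAHA arrays. The untreated arrays had 3.32, 2.70 and 3.01 and EtOH replicates 1 and 3 had 3.23 and 2.69. SAHA replicate 1 lay among the controls, and replicates 2 and 3 lay above them. The log2 fold change was 0.64 (95% interval 0.19 to 1.09) but the adjusted p was 0.18. Over the 20 alternatives it ran from 0.46 to 0.88, with no adjusted p below 0.063.

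ID2, which restrains bHLH factors in many progenitor cells, had the widest range of the members over the 8 arrays. The SAHA arrays had 4.41, 3.89 and 4.94, the untreated arrays 3.89, 4.14 and 4.16, and EtOH replicates 1 and 3 had 3.75 and 2.95. The groups overlapped, since SAHA replicate 2 lay below untreated replicates 2 and 3. The log2 fold change was 0.64 (95% interval 0.00 to 1.27, adjusted p = 0.32). Against EtOH it was 1.07 (0.38 to 1.75, adjusted p = 0.22) and against untreated 0.35 (-0.26 to 0.96, adjusted p = 0.56). EtOH replicate 3, the lowest of the 8 arrays, lay 0.80 below EtOH replicate 1. Without it the log2 fold change from EtOH was 0.66.

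SMAD2, which carries TGF-beta and activin signals, was lower on every SAHA array than on every control. It had 2.90, 3.43 and 3.14 on the SAHA arrays, 3.81, 3.62 and 3.70 on the untreated arrays and 3.87 and 3.74 on EtOH replicates 1 and 3. The controls were close together and the SAHA arrays spread more, with replicate 2 nearest to the controls. SMAD2 was the 1 member with all SAHA arrays below all controls, which 6.25% of all genes show. The mean was 3.16 ± 0.27 (SD, n = 3) against 3.74 ± 0.10 (SD, n = 5), or -0.59 in log2 units (SE 0.12, 95% interval -0.86 to -0.32). This is just over 1.5-fold, and the adjusted p of 0.056 missed the threshold. SMAD2 was called in 2 of 20 alternative settings and missed in the other 18. It passed with the dimmest genes left out (adjusted p = 0.049). It also passed without SAHA replicate 2, with a log2 fold change of -0.73 (adjusted p = 0.031). Over the 20 settings the log2 fold change ran from -0.73 to -0.46. The adjusted p by limma rose to 0.23, not counting the 2 settings that replaced the test. Against EtOH and untreated alone the log2 fold changes were -0.64 (adjusted p = 0.18) and -0.55 (adjusted p = 0.10).

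SMAD3, the other SMAD of the TGF-beta branch, had 2.68, 2.61 and 2.81 on the SAHA arrays. The EtOH arrays were higher, at 3.29 and 3.45 on replicates 1 and 3, and the untreated arrays had 2.83, 3.25 and 2.53. All SAHA arrays lay below both EtOH arrays, but untreated replicate 3 was the lowest of the 8. The log2 fold change was -0.37 against the combined controls (95% interval -0.79 to 0.05, adjusted p = 0.39), -0.67 against EtOH (-1.09 to -0.24, adjusted p = 0.22) and -0.17 against untreated (-0.55 to 0.21, adjusted p = 0.66). The value thus depended on which control was used.

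Of the BMP branch, SMAD1 and SMAD5, and the common partner SMAD4, showed small differences from the combined controls. SMAD5 had 5.20, 5.50 and 5.32 on the SAHA arrays and 5.25 to 5.77 on the controls, with overlapping groups and a log2 fold change of -0.11 (95% interval -0.39 to 0.18, adjusted p = 0.74). SMAD4 had 3.01, 3.29 and 3.30 with SAHA and 3.01 to 3.34 on the controls, a log2 fold change of 0.01 (95% interval -0.24 to 0.26, adjusted p = 0.98). In this fit, made without the replicate number, the intervals of SMAD4 and SMAD5 both lie inside a 1.5-fold change in either direction. Against EtOH the SMAD5 interval ran from -0.586 to 0.091, just past 1.5-fold, which is 0.585 in log2 units. SMAD1 had 0.31, 0.04 and 0.32 with SAHA and -0.24 to 0.31 on the controls, near or below the array medians of 0.26 to 0.33. Its log2 fold change was 0.15 (95% interval -0.16 to 0.47, adjusted p = 0.65), and at such low values little room is left for a fall. The SMAD1 value was -0.04 against EtOH (-0.39 to 0.31, adjusted p = 0.94) and 0.28 against untreated (-0.03 to 0.60, adjusted p = 0.35).

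**Figure D2:**
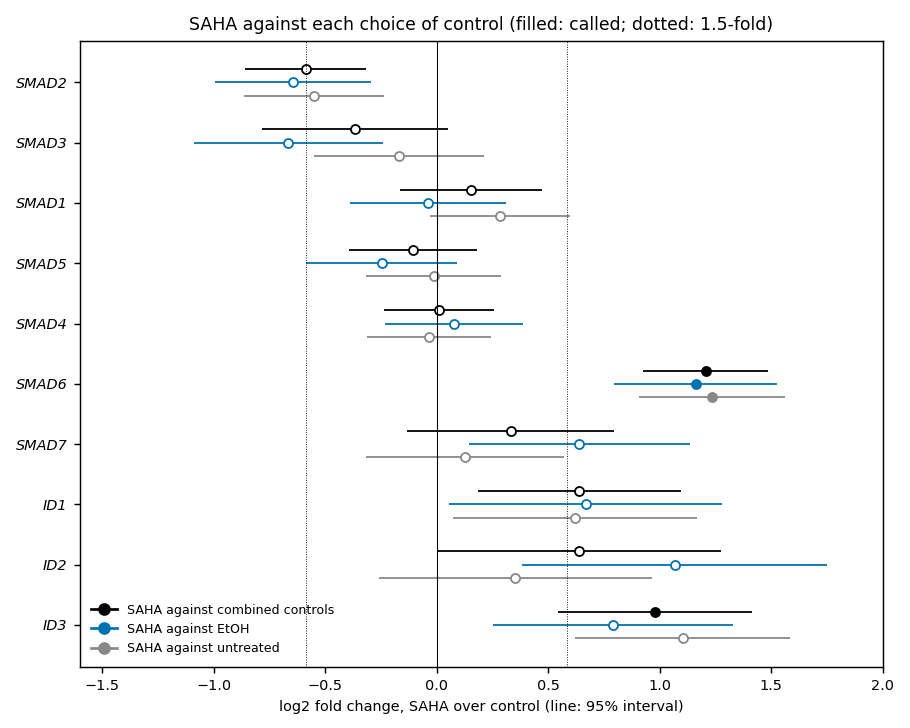
Log2 fold change of the 10 members of SAHA-treated ADSCs over the combined controls (black), EtOH (blue) or untreated ADSCs (grey), with lines for the 95% interval from limma and dotted lines at 1.5-fold. Filled points were called. SMAD6 was called against each control (1.16 to 1.23) and ID3 against the combined controls (0.98).

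Against EtOH alone, 1 of the 10 members was higher, SMAD6, and 0 were lower, where 0.0864% and 0.0162% of all genes were. Against untreated alone, SMAD6 was again the 1 member called higher and 0 were lower, where 0.454% and 0.335% of all genes were. These contrasts share the SAHA arrays and are not independent of each other. Between EtOH and untreated ADSCs 0 members were called, and 0% of all genes were called in either direction by limma. At an unadjusted p under 0.05 there were 1804 genes (9.75%), with 3 members among them. These were SMAD3, with a log2 fold change of 0.50 in EtOH over untreated (adjusted p = 0.47), SMAD7 with -0.51 (adjusted p = 0.50) and ID2 with -0.71 (adjusted p = 0.50). The EtOH mean was thus above the untreated mean for SMAD3 (3.37 and 2.87) and below it for SMAD7 (2.07 and 2.59) and ID2 (3.35 and 4.07), but none of the 3 passed. For SMAD6 the EtOH and untreated means were 2.16 and 2.08, a log2 fold change of 0.07 (95% interval -0.29 to 0.44). EtOH has no replicate 2, so fits without the replicate number compare means over unequal replicate numbers, which the removal of replicate means can shift. Within replicates 1 and 3, EtOH minus untreated was 0.011 and -0.11 for SMAD6. It was 0.46 and 0.91 for SMAD3, -1.21 and -0.03 for SMAD7, and -0.14 and -1.21 for ID2.

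Differences between arrays of the same replicate number are not touched by the removal of the replicate means. They number 5 for each gene, 3 from untreated and 2 from EtOH, and those of a number share its SAHA array. For SMAD6 all 5 were positive, at 0.88, 1.46 and 1.36 from untreated replicates 1, 2 and 3 and 0.87 and 1.47 from EtOH replicates 1 and 3. The differences of replicate 1 were thus the smallest, and they were alike from either control. For ID3 they were 1.14, 0.49 and 1.68 from untreated and 0.48 and 1.46 from EtOH, also all positive. SMAD6 and ID3 were the 2 members of 10 with 5 positive differences, which 5.51% of all genes had. For SMAD2 all 5 were negative, at -0.90, -0.18 and -0.57 from untreated and -0.96 and -0.60 from EtOH, and 8.78% of all genes had 5 negative differences. No other member had 5 of 1 sign. ID1 had differences of -0.18 and -0.09 in replicate 1 and of 0.97 to 1.29 in replicates 2 and 3. ID2 had 4 positive differences, up to 1.99, and 1 negative, at -0.25 in replicate 2. SMAD7 had 4 positive, up to 0.85, and 1 negative, at -0.35 from untreated replicate 1. SMAD3 had 4 negative, from -0.15 to -0.64, and 1 positive, at 0.28 from untreated replicate 3.

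**Figure D3:**
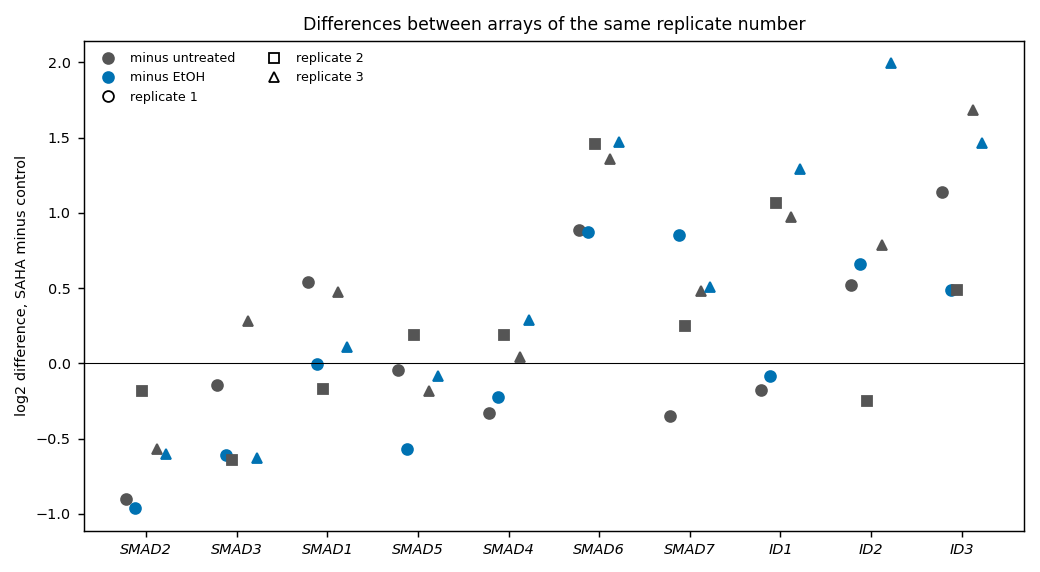
Log2 difference of each SAHA array from the untreated (grey) or EtOH (blue) array of the same replicate number, for the 10 members. Marker shapes give the replicate number. All 5 points lie above 0 for SMAD6 (0.87 to 1.47) and ID3 (0.48 to 1.68) and below 0 for SMAD2 (-0.96 to -0.18).

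The remaining genes of both families are SMAD9, the last of the BMP-branch SMADs, and ID4. SMAD9 had 1.46, 1.38 and 1.38 on the SAHA arrays, above 0.82 to 1.15 on the controls. It differed by 0.45 log2 units (SE 0.11, adjusted p = 0.083), under the 1.5-fold threshold. ID4 had 1.24, 1.37 and 1.27 with SAHA and 1.02 to 1.53 on the controls, a log2 fold change of 0.05 (95% interval -0.23 to 0.34, adjusted p = 0.89).

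The pathway around the members was described with gene lists by role, against the combined controls. Of all genes 0.438% were higher and 0.297% lower, shares that stand beside each list count. Of 14 receptor genes 2 were higher and 0 lower. TGFBR2, the type II receptor of TGF-beta, was higher by 1.03 log2 units (SE 0.12, adjusted p = 0.0046). The co-receptor gene TGFBR3 was higher by 0.79 (adjusted p = 0.020), a call lost in 7 of 18 settings, with adjusted p up to 0.098. Among these were the replicate block and the omission of untreated replicate 2 or of any SAHA array. BMPR2, the type II receptor of BMPs, had 0.56 and missed both thresholds (adjusted p = 0.057). The median over the receptors was 0.07. In the fit with 3 groups, 0 of the 14 receptor genes were called against EtOH, with TGFBR2 at an adjusted p of 0.067 and TGFBR3 at 0.11. Against untreated 1 was higher. Against the combined controls TGFBR2 was called in 18 of 18 settings. Of 12 secreted BMP antagonists 1 was higher, CHRDL1 with 1.27 (adjusted p = 0.0061), and 0 were lower, with a median of 0.08. Of 6 TGF-beta and activin ligands and 10 BMP ligands 0 were called, with medians of 0.03 and -0.03. Of these ligands 1 and 0 had an unadjusted p under 0.05. INHBA, the gene of the activin A subunit, had a log2 fold change of 0.70 (adjusted p = 0.16), while TGFB3 had 0.08, GDF7 0.17 and BMP2 -0.11.

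Inside the cell, 0 of 19 SMAD regulators and 0 of 12 SMAD cofactors were called, with 9 and 2 at an unadjusted p under 0.05, where 15.4% of all genes lie. The regulators had a median of -0.13 and 13 of 19 had negative values, as had 57.6% of all genes. SMURF2, a ubiquitin ligase that acts on SMADs and their receptors, had 0.52 (adjusted p = 0.098). STRAP, which works with SMAD7 at the TGF-beta receptor, had -0.59 (adjusted p = 0.11). Of the cofactors, ZEB1 had -0.37 (adjusted p = 0.15) and SNW1 0.26 (adjusted p = 0.45). Among 15 bHLH factors, which hold the E proteins that ID proteins bind, 0 were called and 4 had an unadjusted p under 0.05, against 15.4% of all genes. MSC (musculin) had -0.55 at an adjusted p of 0.018, short of 1.5-fold, and the E protein genes TCF3, TCF4 and TCF12 had -0.30, 0.22 and -0.20 (adjusted p = 0.34, 0.32 and 0.30).

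Among genes known to respond to the pathway, 2 of 26 TGF-beta target genes were higher and 0 lower, where 0.438% and 0.297% of all genes were. Their median was 0.16, with 15 positive and 11 negative values. An unadjusted p under 0.05 was found in 13 of them, against 15.4% of all genes. The 2 higher genes were CDKN1A, the gene of the cell cycle inhibitor p21, with 2.13 (adjusted p = 9.2e-04) and ELN, which encodes elastin, with 1.13 (adjusted p = 0.0046). The study describes CDKN1A as a target of p53, and which signal raised it was not tested here. The ELN call held in 17 of the same 18 settings and was missed at 0.051 with EtOH arrays only as control. Against EtOH alone 1 of the 26 targets was higher and 0 lower, where 0.0864% and 0.0162% of all genes were. Against untreated alone 2 were higher and 1 lower, where 0.454% and 0.335% of all genes were. Of the targets uncalled against the combined controls, SNAI2 had 0.47 at an adjusted p of 0.044, short of 1.5-fold. TIMP1 had 0.60 (adjusted p = 0.087) and COL4A1 had -0.65 (adjusted p = 0.22). CCN2 had a log2 fold change of 1.3 (adjusted p = 0.10) and the smooth muscle actin gene ACTA2 had -0.79 (adjusted p = 0.10), and neither passed. Of 18 BMP target genes outside the members 0 were called and 4 had an unadjusted p under 0.05, against 15.4% of all genes, with a median of 0.09. DKK1 had 0.86 (adjusted p = 0.075), and BAMBI, a decoy receptor of BMP and TGF-beta signals, had -0.31 (adjusted p = 0.22). The lists were written from general knowledge, and TGFBR2, TGFBR3, CHRDL1, CDKN1A and ELN are among the genes that the study named on these arrays. The study also lists SNAI2 as upregulated, with the same stated thresholds, whereas it was 1.38-fold higher here and not called. The cause of this difference was not tested.

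**Figure D4:**
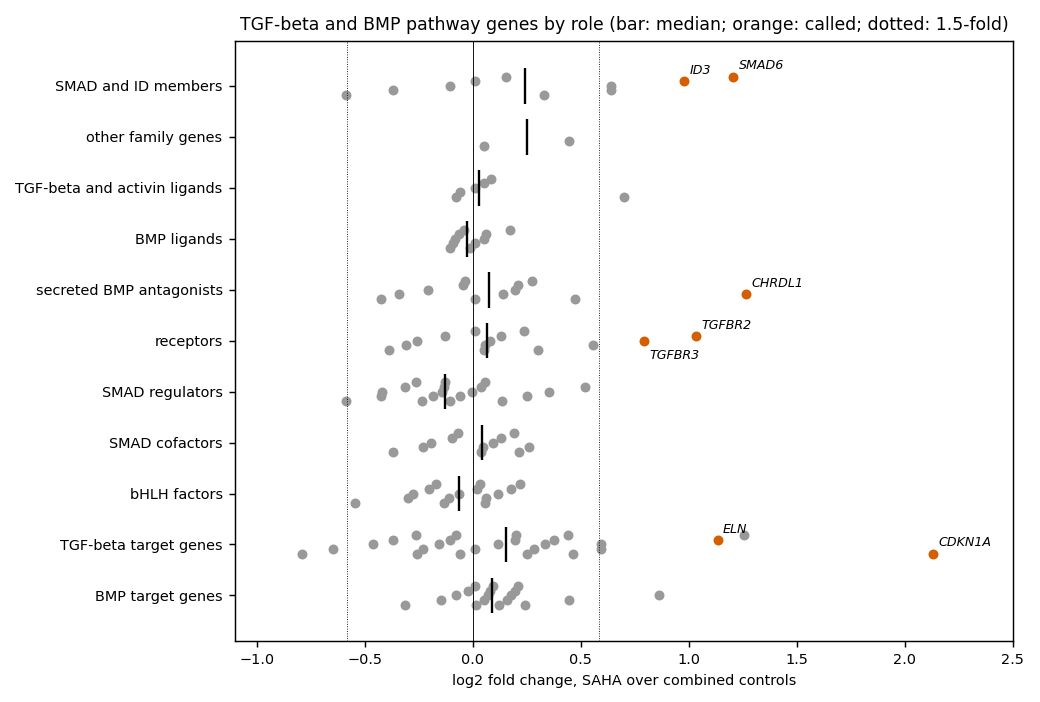
Log2 fold change of SAHA over all controls for the 10 members and for pathway genes by role. Each point is 1 gene, orange points were called, bars are medians of the role and dotted lines mark 1.5-fold. The called genes are SMAD6, ID3, TGFBR2, TGFBR3, CHRDL1, ELN and CDKN1A, all higher.

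The genes nearest in profile to the called members were found by the root mean square difference between profiles over the 8 arrays, each gene centred on its own mean. For SMAD6 these were LHFPL2 (0.071 log2 units), TGFBR2 (0.096), ELN (0.14), PLOD2 (0.14) and MOXD1 (0.15), where the SMAD6 profile itself has a root mean square of 0.60. Of these, TGFBR2 and ELN also stand in the receptor and target lists above, and all 5 had log2 fold changes between 0.93 and 1.13. Genes picked by nearness to a called member's profile have similar fold changes by that choice, so this is no separate evidence. For ID3, whose profile has a root mean square of 0.55, they were ITGB8 (0.086), PLXNA2 (0.092), ABLIM1 (0.13), CEMIP (0.16) and RRAS2 (0.16). CEMIP and RRAS2 were called (adjusted p = 0.041 and 0.012), while ITGB8, PLXNA2 and ABLIM1 were not (adjusted p = 0.092, 0.061 and 0.11). These values are from the fit without the replicate number, whose p-values are likely too small. Other settings are not given for these 5 genes.

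**Figure D5:**
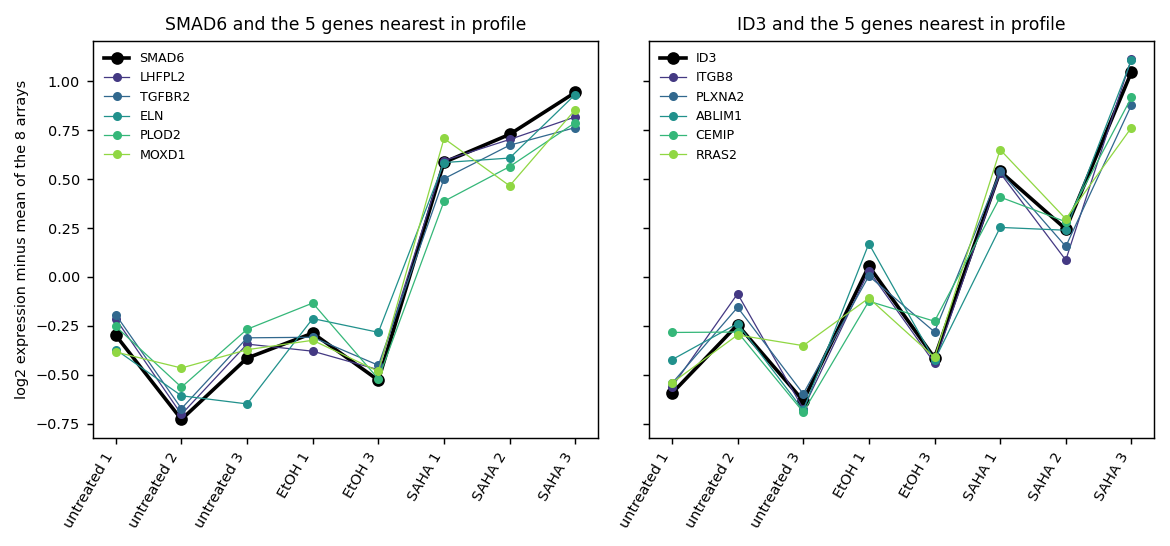
Log2 expression on each of the 8 arrays minus the gene's mean over them, for SMAD6 (left) and ID3 (right) in black and the 5 genes nearest in profile in colour. Lines join the arrays of 1 gene and give no order in time. SMAD6 and its nearest genes are below 0 on all 5 control arrays and above 0 on all 3 SAHA arrays.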

How the data were processed

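Total RNA of ASC52telo ADSCs was hybridized to Clariom S human arrays. The deposited values are log2 expression, which the authors made by RMA normalization in the oligo package after leaving out 1 EtOH array, with 1 value for each of 18508 genes. Equal replicate means show a further centring step, which the methods do not mention. No filter or other normalization was added. In limma 3.58.1 (R 4.3.3), linear models over all genes compared SAHA (3 arrays) with EtOH and untreated combined (2 and 3), as in the study's methods, and a fit with 3 groups gave the other contrasts. Adjusted p-values are Benjamini-Hochberg values over the 18508 genes. The labels call the samples biological replicates of 1 cell line. SDs, SEs and p-values measure the spread left after the centring, and not the full spread between these replicates. The labels add p6, p10 and p16 to replicates 1, 2 and 3, with no explanation. Centring makes a correlation check of this pairing void, and since this step used up degrees of freedom, the fit with the replicate block is given beside the count of called members.

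All 10 members are named. From each list every called gene was named, or else up to 2 with the largest change. Some further uncalled genes (TCF4, TCF12, BAMBI, CCN2, ACTA2, SNAI2, TIMP1, COL4A1, BMPR2) were picked after their values were seen. The members and lists were chosen with earlier results of these data known. The listed genes TGFB2, USP15, EP300 and COL3A1 were not analysed here. Alternatives were quantile normalization, median centring, omission of the dimmest genes by mean value (12338 genes kept), an intensity trend, robust variances, array weights, the replicate block, equal weight of the controls, either control alone, the fold threshold inside the test, the methods' t-test (unpaired, which the methods name in general and not for the arrays) and each array left out. The script was tested on simulated data first. Promoters are from RefSeq, GRCh38.p14. The number of arrays limits the precision.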

Additional observations from a re-analysis of the deposited data

How the results depend on the processing

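Against the combined controls, SMAD6 was called in 18 of 20 alternatives and ID3 in 6, and the number of members higher fell from 2 to 1 with the intensity trend, the replicate block, robust variances, equal weight of the controls, and either control alone, and to 0 with the fold threshold inside the test and the methods' t-test; with an array left out it was 1 to 2. Members lower numbered 1 (SMAD2) with the dimmest genes left out, and 0 to 1 with an array left out. Against EtOH, SMAD6 was lost (0 members) with the trend and the replicate block, and the count was 0 to 1 with an array left out. Against untreated, ID3 joined SMAD6 (2 members) with quantile normalization, median centring and the dimmest genes left out. The cause of these shifts was not tested.

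Over all genes, 81 higher and 55 lower became 36 and 14 with the replicate block, 22 and 16 with EtOH only, 3 and 1 with the fold threshold inside the test and 5 and 4 with the t-test. There were 35 lower with the trend and 112 with array weights, and leaving out an array gave 20 to 80 higher and 10 to 61 lower. Median centring turned the split into 99 higher and 37 lower. Against EtOH, 16 higher and 3 lower became 6 higher with the trend, 6 with the replicate block, 5 lower with the dimmest genes left out, and 0 to 14 and 0 to 5 with an array left out. Against untreated, 84 and 62 became 19 and 6 with the replicate block, and 21 to 63 and 9 to 39 with an array left out. EtOH against untreated gave 0 calls in every setting.

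Signs turned in uncalled members near 0. Against the combined controls, SMAD1 was at -0.038 with EtOH only as control and SMAD4 at -0.035 with untreated only. Against EtOH, SMAD1 was at 0.0039 with quantile normalization and 0.0091 with median centring. Against untreated, SMAD4 was at 0.0038 and SMAD5 at 0.026 with median centring. With an array left out, SMAD4 ran from -0.042 to 0.11 against the combined controls, -0.031 to 0.19 against EtOH and -0.10 to 0.060 against untreated, SMAD1 from -0.087 to 0.053 against EtOH, SMAD3 from -0.34 to 0.021 and SMAD5 from -0.094 to 0.061 against untreated, and, for EtOH against untreated, SMAD6 from -0.051 to 0.19 and ID1 from -0.31 to 0.22.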
